A study of Homo sapiens with 8 samples.

Results

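The genes described here are the well-expressed human ZNF genes, which encode zinc finger proteins. They were taken as every gene whose symbol is ZNF followed by digits alone and whose raw count averaged at least 200 over the 8 libraries. Of 62086 genes in the count table, 477 had such a symbol and 268 of these reached the threshold. All 268 are annotated as protein coding and all 268 passed the filter on low counts, which left 20165 genes for testing. The choice used the level of each gene over all libraries, and the genes were proposed with earlier results of these data known.

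The cells were hESCs of the line BG01, a human embryonic stem cell line. They received 5 µg/mL of anti-M8nAb, an antibody that neutralizes the secreted glycoprotein MFG-E8, or 5 µg/mL of mouse IgG as the isotype control. RNA was taken after 12 h or 24 h, with 2 libraries for each of anti-M8nAb at 12 h, IgG at 12 h, anti-M8nAb at 24 h and IgG at 24 h. All libraries came from this 1 line, and the labels call the libraries of a group biological replicates without saying whether cultures were separate, and p-values therefore cover the spread among these libraries only.

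Most ZNF proteins carry C2H2 zinc fingers, short repeats in which a pair of cysteines and a pair of histidines hold a zinc ion and a helix reads a few bases of DNA. Many have a KRAB domain at the amino end, which recruits the corepressor TRIM28 and through it histone methyltransferases such as SETDB1. KRAB zinc finger genes form clusters on chromosome 19, and in embryonic stem cells many of their proteins silence transposons and guard imprinted loci. For 4 genes on which the results turn, 1 finger of each is shown as its coding sequence. The codons of the zinc-holding cysteines and histidines are in capitals. It is the first finger with the common spacing and a conserved linker after it, so other finger patterns can lie before it. In ZNF134 it starts at residue 206 of 427. ZNF551 and ZNF134 fell by more than 2-fold at 24 h, as did the pluripotency factor ZNF281, while ZNF529 was among the genes that rose most at both times.
ZNF551: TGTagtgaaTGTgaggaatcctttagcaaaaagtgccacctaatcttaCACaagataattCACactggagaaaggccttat
ZNF134: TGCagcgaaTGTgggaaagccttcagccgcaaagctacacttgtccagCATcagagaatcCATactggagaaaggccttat
ZNF281: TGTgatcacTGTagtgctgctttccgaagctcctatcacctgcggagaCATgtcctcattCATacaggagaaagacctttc
ZNF529: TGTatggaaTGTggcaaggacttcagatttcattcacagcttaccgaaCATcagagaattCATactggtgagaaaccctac
Each runs from the first cysteine codon through the linker to the next finger and is 81 bases long. The genes lie on GRCh38 at chr19:57681969-57717301 on the plus strand (ZNF551), chr19:57614233-57624724 on the plus strand (ZNF134), chr1:200404940-200410056 on the minus strand (ZNF281) and chr19:36534774-36605276 on the minus strand (ZNF529).

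Each library held between 21010400 and 21792716 counts over genes. The common coefficient of variation between libraries of a group, as edgeR estimates it over all genes and without counting noise, was 5.53%. Markers of pluripotent cells were present throughout, since the 10 genes of that list, POU5F1 and NANOG among them, summed to 7969 and 7871 CPM (counts scaled to library size by TMM) with anti-M8nAb against 6835 and 6969 CPM with IgG at 12 h. At 24 h they summed to 6892 and 6741 CPM with anti-M8nAb against 6333 and 6244 CPM with IgG. At 12 h 8 of the 10 were higher, and SOX2 and ZFP42 did not pass the test. At 24 h POU5F1, LIN28A and DPPA4 were higher, while NANOG (-0.25), SOX2 (-0.26) and ZFP42 (-0.48 on the log2 scale) were lower. The 5 neuroectoderm markers, almost wholly NES, summed to between 200.8 and 260.7 CPM in the anti-M8nAb libraries and between 170.2 and 183.4 CPM in the IgG libraries. All 4 of them that were tested (NES, LHX2, PAX6 and SOX1) were higher at 12 h. NES and LHX2 were also higher at 24 h. LHX2 rose by 2.25 at 12 h and 1.92 at 24 h, and SOX1 by 2.09 at 12 h. The 5 mesoderm and 5 endoderm markers stayed under 10 CPM in sum in every library. Among them CXCR4 was higher at both times (0.98 and 1.97) and FOXA2 lower at 24 h (-2.03). EOMES was higher at 12 h and MIXL1 lower at 24 h. Apart from NES, each of these called genes averaged 76.125 raw counts or fewer. The 6 fibroblast markers, mostly COL1A1 and COL1A2, summed to between 94.4 and 118.9 CPM with anti-M8nAb and between 118.6 and 154.4 CPM with IgG. COL1A2 was lower at both times (-0.60 at 12 h and -1.09 at 24 h), while COL1A1 passed the test at neither. LUM, DCN, MESP1, HAND1, SOX17, GATA6, GATA4 and NEUROD1 averaged under 5 raw counts. The part of these markers in the ZNF results was not tested. In RNA from whole cultures, fewer cells of a type and less RNA per cell cannot be told apart.

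The ZNF genes were transcribed at a modest level. Their raw counts averaged 203.375 to 6052 over the libraries with a median of 511.5, and their deposited FPKM averaged 0.912 to 46.8 with a median of 4.16. ZNF146, a protein made of little but fingers, had the highest mean FPKM (46.8), followed by ZNF22 (36.6), ZNF593 (34.8), ZNF664 (33.8) and ZNF622 (28.9). ZNF593 and ZNF622 are known from their yeast relatives as factors of ribosome assembly. Of these 5, ZNF146 rose at 12 h by 0.25 on the log2 scale (SE 0.06, adjusted p = 0.000389) and ZNF664 rose at 24 h by 0.22 (SE 0.05, adjusted p = 0.000845), by edgeR's quasi-likelihood F test with Benjamini-Hochberg adjustment over all genes tested. The other 3 passed the test at neither time. All of the exon sequence of ZNF593, 37.9% of that of ZNF22 and 10.8% of that of ZNF146 overlap a gene on the other strand. The authors' methods do not say whether the counts separate strands. At the threshold, ZNF516 (mean raw count 203.4) and ZNF785 (204.6) were just inside, while ZNF81 (199.75) and ZNF805 (199.1) were just outside.

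Per library, the ZNF genes together took 0.980% and 0.972% of gene counts with anti-M8nAb at 12 h, against 0.951% and 0.953% with IgG. At 24 h they took 0.863% and 0.848% with anti-M8nAb, against 1.03% and 1.01% with IgG. The anti-M8nAb libraries thus lay above the IgG libraries at 12 h and below them at 24 h, with no overlap at either time.

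At 12 h the response of the ZNF genes was small and leaned upward. Of the 268 genes, 57 (21.3%) were higher and 25 (9.33%) lower with anti-M8nAb at an adjusted p under 0.05, where 15.8% of all genes tested were called higher and 16.4% lower. Among the 10879 genes tested that had a mean raw count of at least 200, the shares were 20.8% and 21.5%, so the share of ZNF genes called higher was near the background and the share called lower was under it. The median log2 fold change was 0.08, against 0.00 for all genes tested, and from the 10th to the 90th percentile the ZNF genes ran from -0.27 to 0.38. Both anti-M8nAb libraries lay above both IgG libraries in 122 of the 268 genes and below them in 60, where 32.9% and 33.3% of all genes tested did so. Without the second IgG library at 12 h, 13 in place of 25 genes were called lower and 40 in place of 57 higher. With limma on log2(FPKM + 1), 33 were higher and 21 lower, where 9.08% and 16.9% of all genes in that fit were called so, and the median was 0.02 against -0.04 for all genes.

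Only 3 ZNF genes changed by at least 2-fold at 12 h: 2 were higher and 1 lower, where 3.40% of all genes tested were called higher and 2.97% lower by that rule (0.974% and 1.04% of genes with a mean raw count of at least 200). ZNF730, a KRAB zinc finger gene of the chromosome 19 clusters, reached 27.8 and 26.9 CPM with anti-M8nAb, against 11.6 and 9.52 CPM with IgG. Its log2 fold change was 1.37 (SE 0.12, adjusted p = 2.55e-12). ZNF335, which joins complexes that methylate histone H3 and is needed in neural progenitors, stood at 53.1 and 47.6 CPM with anti-M8nAb against 23.1 and 26.998 CPM with IgG. Its rise of 1.01 (SE 0.10, adjusted p = 2.02e-11) came with both anti-M8nAb libraries above both IgG libraries. ZNF516, a partner of CtBP corepressor complexes, had 2.45 and 2.99 CPM with anti-M8nAb and 9.91 and 9.66 CPM with IgG, so it fell by 1.84 (SE 0.18, adjusted p = 3.03e-11).

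The other genes with the smallest p at 12 h that rose were ZNF529, ZNF331, ZNF320, ZNF445 and ZNF84. ZNF529 was at 42.5 CPM in both anti-M8nAb libraries and at 21.8 and 21.6 CPM in the IgG libraries, which is a log2 difference of 0.97 (SE 0.09, adjusted p = 1.11e-11), and 24.0% of its exon sequence overlaps a gene on the other strand. ZNF331, a KRAB gene that is imprinted in humans, was at 91.2 and 85.6 CPM with anti-M8nAb against 64.3 and 59.2 CPM with IgG. It rose by 0.52 (SE 0.07, adjusted p = 7.03e-08), and ZNF320 rose by 0.49 (SE 0.07, adjusted p = 4.34e-07). ZNF445, which helps to keep the methylation of imprinted loci, had 57.1 and 60.4 CPM with anti-M8nAb against 40.7 and 40.4 CPM with IgG, a rise of 0.54 (SE 0.08, adjusted p = 1.1e-06). On the lower side, ZNF267 (-0.78), ZNF521 (-0.76), ZNF395 (-0.74), ZNF771 (-0.62), ZNF589 (-0.47) and ZNF618 (-0.42) followed ZNF516 by p. ZNF521, a cofactor of blood and neural progenitors, was at 8.34 and 9.11 CPM with anti-M8nAb against 15.2 and 14.5 CPM with IgG (SE 0.14, adjusted p = 2.47e-05). In ZNF395, 34.99% of the exon sequence overlaps a gene on the same strand and 41.8% of its 50-base words recur in other transcripts, and in ZNF771 11.7% overlaps a gene on the other strand, so counts of these may take in other transcripts.

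**Figure D1:**
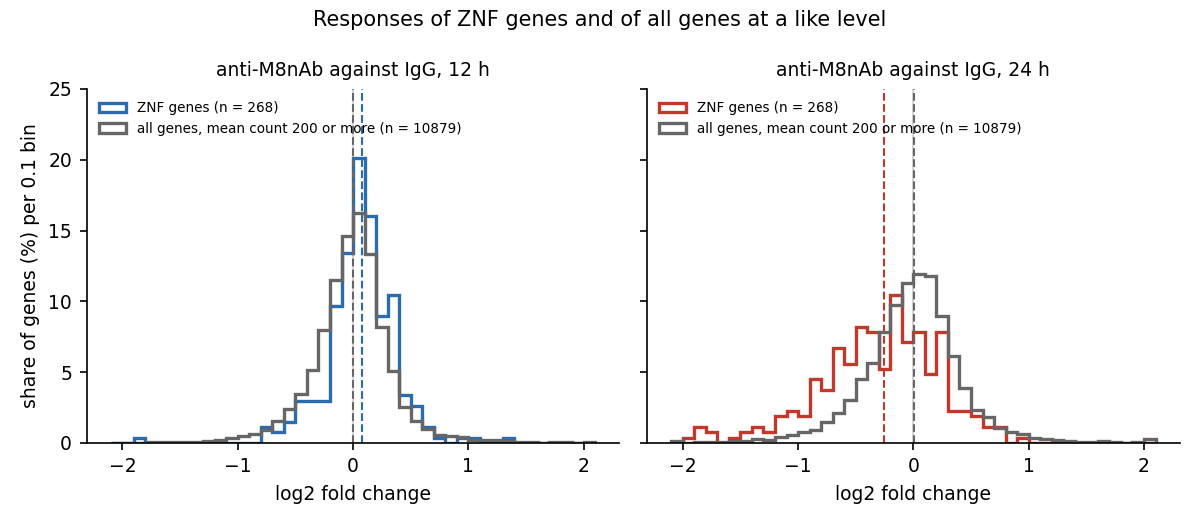
Distribution of log2 fold changes of anti-M8nAb against IgG (x axis) at 12 h, left, and at 24 h, right, for the 268 ZNF genes (coloured) and for the 10879 genes tested with a mean raw count of at least 200 (grey); the y axis is the share of genes in percent per bin of 0.1, dashed lines are medians and values beyond the axis are placed in the end bins. The ZNF median is 0.08 at 12 h and -0.25 at 24 h, while the grey medians stay near 0.

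At 24 h the ZNF genes were widely lower with anti-M8nAb. Of the 268 genes, 134 (50%) were lower and 38 (14.2%) higher, where 21.3% of all genes tested were called lower and 21.2% higher. Among genes with a mean raw count of at least 200 the shares were 27.0% and 27.7%. The median log2 fold change of the ZNF genes was -0.25, against 0.00 for all genes tested, and the 10th and 90th percentiles were -0.94 and 0.27. All 134 genes called lower had both anti-M8nAb libraries below both IgG libraries. They were picked by a test on these same libraries, so this adds no separate support. Over the 268 genes, called or not, 157 had anti-M8nAb wholly below IgG and 55 wholly above, where 34.2% and 34.8% of all genes tested did so. With limma on log2(FPKM + 1), 147 were lower and 20 higher, where 25.3% and 13.7% of all genes in that fit were called so.

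A fall of at least 2-fold at 24 h was seen in 25 ZNF genes and a rise of that size in 0, where 4.84% of all genes tested were called lower and 4.76% higher by this rule. In genes with a mean raw count of at least 200 the shares were 1.98% and 1.52%. The highest log2 fold change of a ZNF gene at 24 h was that of ZNF529 (0.94). ZNF551, a KRAB zinc finger gene near the end of the long arm of chromosome 19, stood at 13.6 and 13.0 CPM with anti-M8nAb, against 52.0 and 50.1 CPM with IgG. This difference of -1.94 on the log2 scale (SE 0.10, adjusted p = 2.89e-20) was the most negative of the 268. ZNF549, from the same stretch of chromosome 19, was at 6.72 and 6.24 CPM with anti-M8nAb against 23.6 CPM in both IgG libraries. It fell by 1.86 (SE 0.13, adjusted p = 3.11e-16).

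ZNF124, ZNF416, ZNF200 and ZNF239 came next in size of fall. ZNF124, on chromosome 1, had 5.11 and 5.50 CPM with anti-M8nAb against 22.1 and 16.5 CPM with IgG, which is -1.86 on the log2 scale (SE 0.16, adjusted p = 1.59e-13). ZNF416, on chromosome 19, had 5.403 and 3.12 CPM with anti-M8nAb against 14.6 and 15.8 CPM with IgG (-1.83, SE 0.17, adjusted p = 6.6e-12). ZNF200, on chromosome 16, had 5.16 and 5.46 CPM with anti-M8nAb against 17.7 and 18.8 CPM with IgG (-1.78, SE 0.14, adjusted p = 4.58e-14). In each of these the anti-M8nAb libraries lay well apart from the IgG libraries. ZNF239, on chromosome 10, had 3.21 and 3.46 CPM with anti-M8nAb against 10.04 and 11.8 CPM with IgG, and fell by 1.71 (SE 0.17, adjusted p = 2.26e-11). The other 19 genes past 2-fold had log2 fold changes from -1.57 (ZNF256) to -1.02 (ZNF660). They were ZNF256, ZNF347, ZNF850, ZNF488, ZNF791, ZNF316, ZNF180, ZNF629, ZNF594, ZNF544, ZNF253, ZNF134, ZNF620, ZNF48, ZNF417, ZNF776, ZNF398, ZNF281 and ZNF660. Of these, ZNF417 shares 37.9% of its 50-base words with other transcripts, ZNF544 12.6% and ZNF776 10.5%, and 10.2% of the exon sequence of ZNF48 overlaps a gene on the other strand.

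Among the genes past 2-fold, 2 factors linked to pluripotency had some of the highest levels, with a mean FPKM of 21.2 for ZNF281 and 13.7 for ZNF398. ZNF281, which binds with the core pluripotency factors, was at 68.0 and 66.5 CPM with anti-M8nAb at 24 h, against 141 and 133 CPM with IgG. Its log2 fold change was -1.03 (SE 0.06, adjusted p = 1.41e-17). ZNF398, known to sustain the epithelial state of human pluripotent cells, was at 57.1 and 55.5 CPM with anti-M8nAb against 115 and 117 CPM with IgG (-1.04, SE 0.07, adjusted p = 1.46e-17). At 12 h neither gene passed the test, with log2 fold changes of -0.13 (ZNF281) and 0.02 (ZNF398). ZNF134 followed the same course, at 42.6 and 38.7 CPM with anti-M8nAb against 91.6 and 86.7 CPM with IgG at 24 h (-1.13, SE 0.07, adjusted p = 6.08e-17) and with -0.02 at 12 h. ZNF629 was at 29.1 and 26.2 CPM with anti-M8nAb against 66.1 and 64.4 CPM with IgG (-1.24, SE 0.09, adjusted p = 2.77e-16).

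The 38 ZNF genes that rose at 24 h did so by less. ZNF529 was again foremost, at 45.1 and 48.0 CPM with anti-M8nAb against 24.0 and 24.4 CPM with IgG, or 0.94 on the log2 scale (SE 0.09, adjusted p = 5.94e-12). ZNF76, an activator of small nuclear RNA genes, was at 45.03 and 44.8 CPM with anti-M8nAb against 25.8 and 29.5 CPM with IgG. It rose by 0.70 (SE 0.09, adjusted p = 1.23e-08). ZNF697 rose by 0.66 (SE 0.09, adjusted p = 1.84e-08), ZNF561 by 0.61 (SE 0.09, adjusted p = 1.36e-07) and ZNF331 by 0.52 (SE 0.07, adjusted p = 3.91e-08). ZNF326, part of a complex that ties RNA polymerase II to splicing, had 109 and 113 CPM with anti-M8nAb against 84.6 and 75.9 CPM with IgG (0.47, SE 0.07, adjusted p = 9.76e-08). ZNF397 rose as much (0.47, SE 0.07, adjusted p = 7.9e-07).

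**Figure D2:**
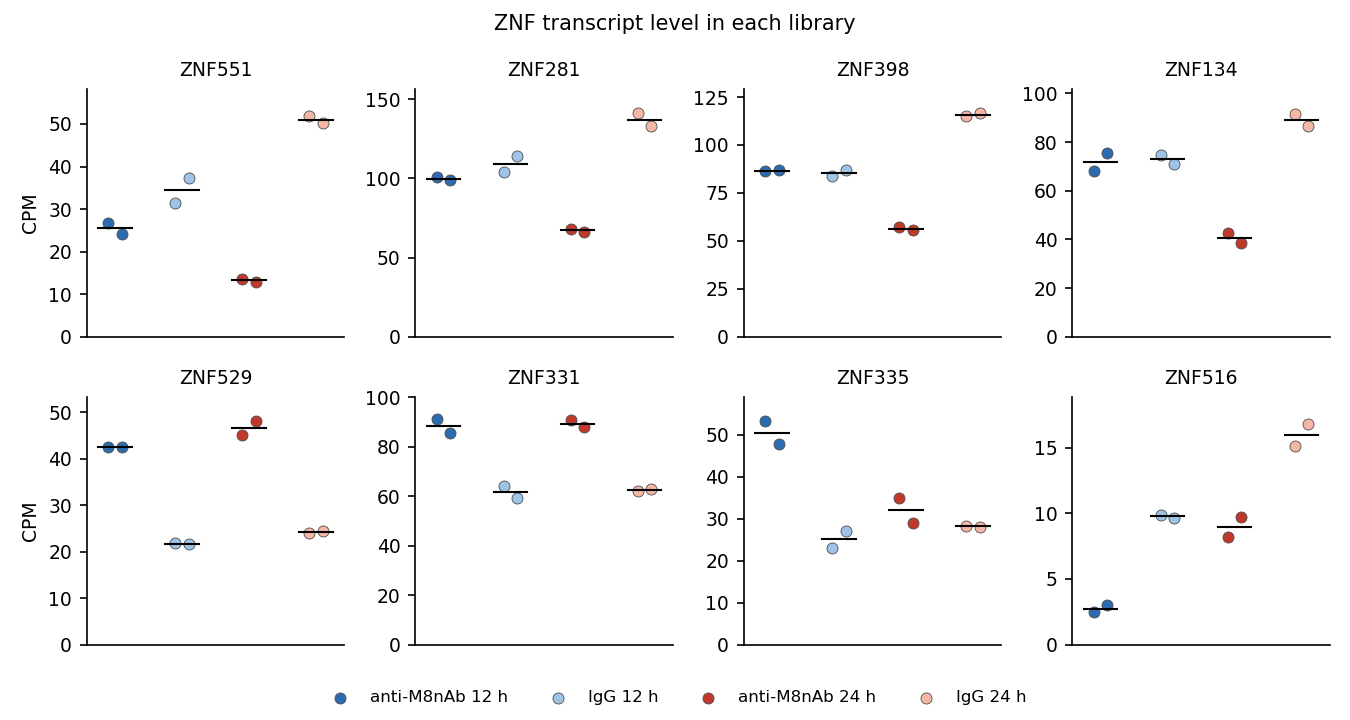
Transcript level in CPM (y axis, from 0, scaled separately for each gene) of 8 ZNF genes in each of the 8 libraries, with the groups in the order anti-M8nAb 12 h, IgG 12 h, anti-M8nAb 24 h and IgG 24 h; each point is 1 library and each bar the mean of 2. ZNF551, ZNF281, ZNF398 and ZNF134 are lowest with anti-M8nAb at 24 h, ZNF529 and ZNF331 are higher with anti-M8nAb at both times, ZNF335 is higher chiefly at 12 h and ZNF516 is lower at both times.

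The change of the response between the times had a contrast to itself. The response was more negative at 24 h than at 12 h in 112 ZNF genes (41.8%) and more positive in 8, where 6.54% of all genes tested were called more negative and 5.79% more positive. Among genes with a mean raw count of at least 200 the shares were 9.43% and 8.70%. The median of the difference over the ZNF genes was -0.33 on the log2 scale. With single libraries left out, 86 to 105 genes were more negative and 4 to 7 more positive, the lowest count of 4 coming without the first IgG library or the second anti-M8nAb library at 12 h. Without the second IgG library at 12 h it was 5. With limma on log2(FPKM + 1), 61 were more negative and 2 more positive, where 3.23% and 2.16% of all genes in that fit were called so, and with log2(FPKM + 0.1) these counts were 59 and 2.

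ZNF398, ZNF549, ZNF134 and ZNF551 had the smallest p among the genes with a more negative response at 24 h. The differences were -1.06 for ZNF398 (adjusted p = 5.63e-12), -1.99 for ZNF549 (adjusted p = 9.15e-12), -1.11 for ZNF134 (adjusted p = 4.64e-11) and -1.50 for ZNF551 (adjusted p = 6.64e-11). In each of them the anti-M8nAb libraries were lower at 24 h than at 12 h, and the IgG libraries were higher. ZNF549, for example, was at 6.72 and 6.24 CPM with anti-M8nAb at 24 h and 16.4 and 17.7 CPM with anti-M8nAb at 12 h, while IgG libraries held 23.6 CPM at 24 h and 15.7 and 15.5 CPM at 12 h. On the other side, the response of ZNF326 was more positive at 24 h by 0.61 (adjusted p = 4.78e-06), that of ZNF516 by 1.01 (adjusted p = 0.00239), that of ZNF165 by 0.86 (adjusted p = 0.00334) and that of ZNF609 by 0.40 (adjusted p = 0.00423). ZNF516 was still lower with anti-M8nAb at 24 h, at 8.18 and 9.74 CPM against 15.1 and 16.8 CPM with IgG (-0.83, SE 0.15, adjusted p = 8.54e-06). ZNF165, a gene best known from testis and tumours, rose by 0.77 at 24 h (SE 0.14, adjusted p = 1.78e-05), and 20.1% of its exon sequence overlaps a gene on the other strand.

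Between the IgG groups, at 24 h against 12 h, 44 ZNF genes were higher and 14 lower, where 7.01% of all genes tested were called higher and 6.64% lower. Among genes with a mean raw count of at least 200 the shares were 9.16% and 10.7%, and the median of the ZNF genes was 0.10. Both the test of the difference and the test at each time use these IgG libraries.

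Sorted by their calls at both times, 107 ZNF genes (39.9%) were lower at 24 h alone, where 10.2% of all genes tested and 11.8% of those with a mean raw count of at least 200 took that course, and 18 were lower at both times. A further 22 were higher at both times, where 10.1% of all genes tested were higher and 10.7% lower at both (14.7% and 14.6% at a mean raw count of at least 200). Without the second IgG library at 12 h, 9 in place of 18 were lower at both times. Another 9 genes (ZNF18, ZNF84, ZNF202, ZNF292, ZNF304, ZNF574, ZNF607, ZNF621 and ZNF708) were higher at 12 h and lower at 24 h, where 0.426% of all genes tested and 0.662% of those with a mean raw count of at least 200 took that course, and 0 of the 268 took the reverse course (0.382% and 0.616%), a count that was 1 at an unadjusted p under 0.05 in edgeR and 0 with DESeq2. ZNF84 was at 129.7 and 130.1 CPM with anti-M8nAb against 100.6 and 98.2 CPM with IgG at 12 h, a rise of 0.39 (SE 0.06, adjusted p = 3.07e-06). At 24 h it was at 76.1 and 71.1 CPM with anti-M8nAb against 101.3 and 97.3 CPM with IgG, or -0.43 on the log2 scale (SE 0.06, adjusted p = 3.45e-07). The IgG level of this gene was thus much the same at the 2 times. ZNF607 shares 20.2% of its 50-base words with other transcripts. Of the other courses, 26 genes were higher at 12 h alone (5.34% of all genes tested and 5.40% of those with a mean raw count of at least 200), 16 were higher at 24 h alone (10.7% and 12.3%), 7 were lower at 12 h alone (5.28% and 6.29%) and 63 had no call at either time (46.9% and 33.6%).

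**Figure D3:**
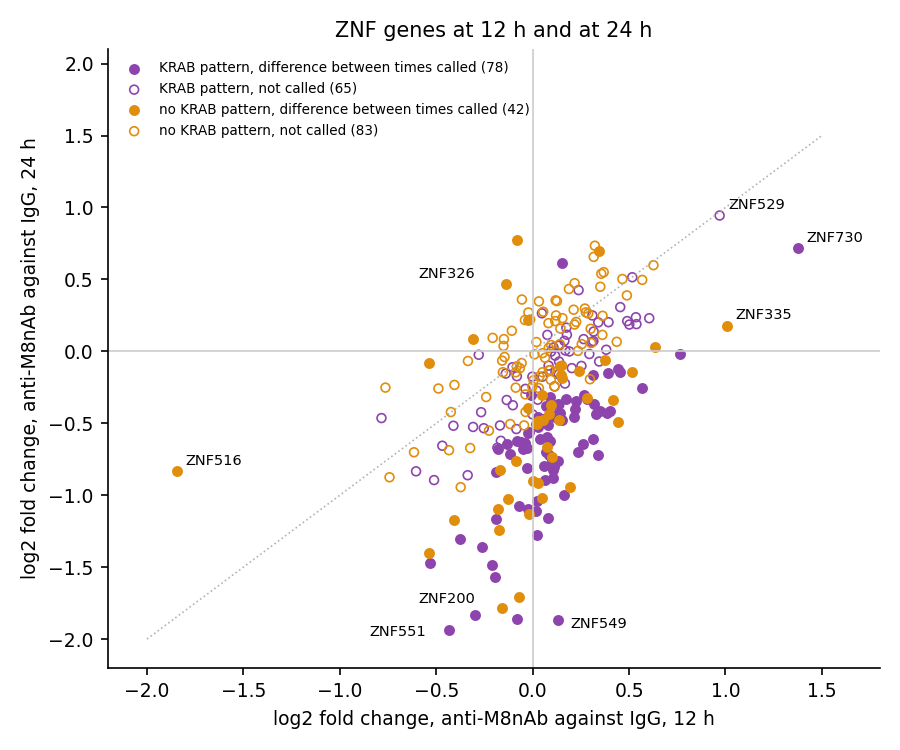
Log2 fold change of anti-M8nAb against IgG at 12 h (x axis) and at 24 h (y axis) for each of the 268 ZNF genes, coloured by whether the protein holds a KRAB pattern; filled points passed the test of the difference between the times and the dotted line marks equal responses. Most filled points lie below the line, 112 of them against 8 above it.

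By role, the lists of ZNF genes with a known function were chosen with earlier results known and are given as counts. Among genes with a mean raw count of at least 200, 27.0% were lower and 27.7% higher at 24 h, and 21.5% were lower and 20.8% higher at 12 h, and in lists of 8 to 12 genes a count of 2 or 3 is near those shares. Of 10 genes linked to pluripotency or stem cells (all but ZNF296 above the count threshold), 4 were lower and 1 was higher at 24 h. At 12 h there were 4 lower and 2 higher. Besides ZNF281 and ZNF398, ZNF589, a KRAB gene of blood stem cells, was at 59.1 and 52.5 CPM with anti-M8nAb against 89.1 and 86.8 CPM with IgG at 24 h, and it fell at both times (-0.47 at 12 h and -0.66 at 24 h, adjusted p = 5.99e-07 and 2.09e-10). ZNF462, a chromatin-linked factor of stem cells and neural development, rose at 24 h, with 102 and 92.8 CPM with anti-M8nAb against 75.3 and 69.3 CPM with IgG (0.43, SE 0.07, adjusted p = 1.14e-06). ZNF143, an activator that binds many promoters, passed the test at neither time.

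The KRAB repressors of transposons, imprints and gene promoters were lower at 24 h in 6 of 8 genes (all but ZNF808 above the count threshold) and higher in 1, while at 12 h 3 were higher. ZNF202, a repressor of lipid metabolism genes, was at 58.0 and 58.2 CPM with anti-M8nAb against 45.1 and 46.7 CPM with IgG at 12 h, and at 32.5 and 29.9 CPM with anti-M8nAb against 50.9 and 51.7 CPM with IgG at 24 h. It rose by 0.34 at 12 h (SE 0.08, adjusted p = 0.000733) and had a log2 fold change of -0.72 at 24 h (SE 0.08, adjusted p = 8.75e-10). ZNF10, the source of the KRAB domain used in many synthetic repressors, was at 10.8 and 11.8 CPM with anti-M8nAb against 24.1 and 21.1 CPM with IgG at 24 h (-1.0, SE 0.12, adjusted p = 6.98e-09), and 10.4% of its 50-base words recur in other transcripts. ZNF649 fell by 0.56 at 24 h (SE 0.08, adjusted p = 2.81e-07). ZNF445 was the 1 gene of this list that was higher at 24 h (0.24, SE 0.08, adjusted p = 0.016).

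Among 12 zinc finger partners of chromatin complexes, all but ZNF410 above the count threshold, at 24 h 5 passed the test as higher and 4 as lower. At 12 h the counts were 3 and 2, near the shares of all genes at a like level, and the list's median log2 fold changes were 0.19 at 24 h and 0.14 at 12 h. ZNF532 belongs with ZNF592 and ZNF687 to a complex around the histone reader ZMYND8. It had 243 and 234 CPM with anti-M8nAb against 199.6 and 198.6 CPM with IgG at 24 h, and it rose by 0.26 at 24 h and 0.29 at 12 h (adjusted p = 5.54e-05 and 2.04e-05), with 11.3% of its 50-base words shared with other transcripts. ZNF687 took the other direction at 24 h, at 57.6 and 54.9 CPM with anti-M8nAb against 69.5 and 78.3 CPM with IgG (-0.39, SE 0.07, adjusted p = 2.07e-05), with 12.1% of its exon sequence under a gene on the other strand. ZNF335 was at 34.9 and 28.99 CPM with anti-M8nAb against 28.3 and 28.1 CPM with IgG at 24 h, and its log2 fold change of 0.18 did not pass the test (adjusted p = 0.146).

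Of 10 zinc finger proteins that act on RNA, ribosomes or SUMO, at 24 h 3 passed the test as higher and 1 as lower. At 12 h the counts were 2 and 1. The shares higher were near those of all genes at a like level at both times, and the list's median log2 fold changes were -0.05 at 24 h and 0.02 at 12 h. ZNF638, a large nuclear protein that silences unintegrated viral DNA, was at 166 and 157 CPM with anti-M8nAb against 145 and 123 CPM with IgG at 24 h. It rose by 0.27 at 24 h and by 0.28 at 12 h (adjusted p = 0.000336 and 0.000325). ZNF277 fell by 0.49 at 12 h (SE 0.11, adjusted p = 0.000769), and ZNF830, linked to splicing and genome stability, rose by 0.38 at 12 h (SE 0.10, adjusted p = 0.00341). At 24 h neither passed the test, with log2 fold changes of -0.26 and -0.06 in that order.

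The ZNF proteins differ in the domains they carry, which the choice of genes did not use. Translated coding sequences gave a median of 10 C2H2 patterns per protein, with a range of 0 to 36, and a KRAB pattern in 143 of the 268. At 24 h, 91 of the 143 genes with a KRAB pattern (63.6%) were lower and 9 (6.29%) higher, with a median of -0.42. Of the 125 without it, 43 (34.4%) were lower and 29 (23.2%) higher, with a median of -0.10. A like order was not seen at 12 h, when 28 with and 29 without the pattern were higher, 11 and 14 were lower, and the medians were 0.10 and 0.05. These are descriptions, and the difference between the sets was not tested.

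The share of genes lower at 24 h also differed with the number of fingers. It was 16.7% (5 of 30) for 0 to 3 patterns, 43.8% (21 of 48) for 4 to 7, 49.4% (43 of 87) for 8 to 11, 66.1% (37 of 56) for 12 to 15 and 59.6% (28 of 47) for 16 or more. Genes with few fingers, among them ZNF326, ZNF609, ZNF593 and ZNF622, had a median of 0.01 at 24 h, and 8 of the 30 (26.7%) were higher. The same 30 took in ZNF281 with 3 patterns and ZNF395 with 1 (-0.88 at 24 h), and 2 of them fell past 2-fold. The share differed with the level too. Ranked by mean raw count, 57.8% of the lowest 90 genes (203.4 to 359.1), 52.8% of the next 89 and 39.3% of the highest 89 (720.6 to 6052) were lower at 24 h. Across the 268 genes, the log2 fold change at 24 h had a Pearson correlation of -0.159 and a Spearman correlation of -0.22 with the number of fingers, and of 0.28 and 0.284 with the log2 mean count. Against exon GC content these were 0.0244 and -0.0137, although the ZNF genes had a lower exon GC content (median 44.9%) than all genes tested (48.2%). Genes measured in the same libraries are not independent of each other.

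**Figure D4:**
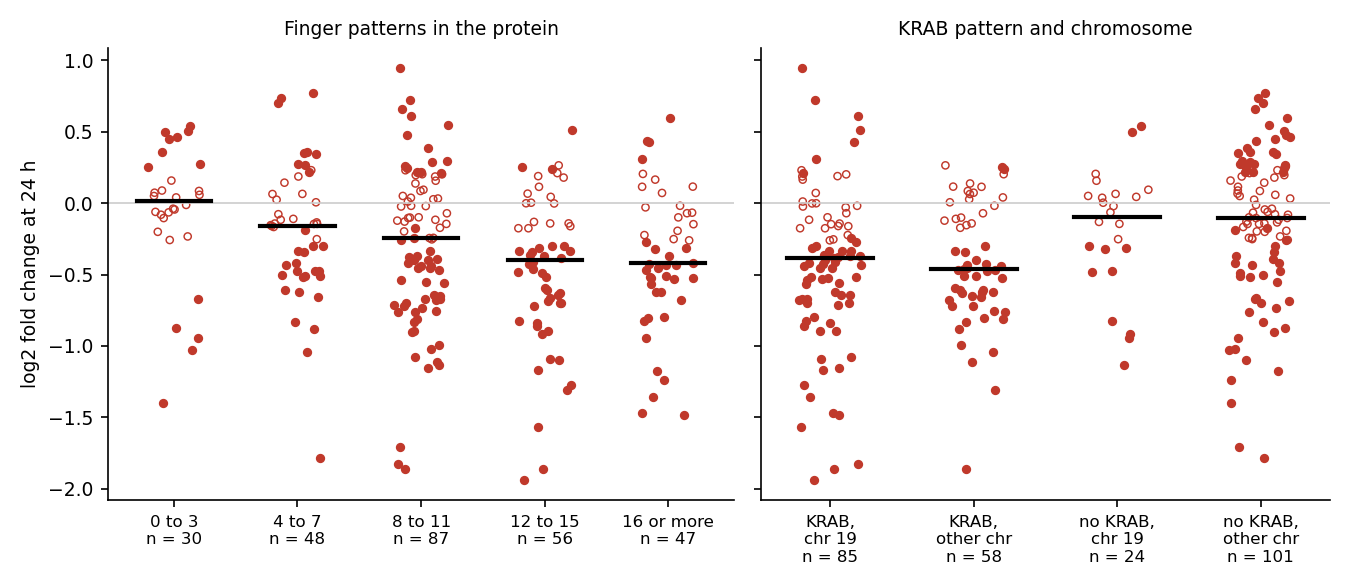
Log2 fold change of anti-M8nAb against IgG at 24 h (y axis) for each of the 268 ZNF genes, grouped by the number of C2H2 finger patterns in the protein (left) and by KRAB pattern and chromosome (right); filled points passed the test at 24 h, open points did not, and bars are medians. The medians run from 0.01 for 0 to 3 fingers to -0.42 for 16 or more, and lie at -0.38 and -0.46 for KRAB genes on and off chromosome 19.

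Chromosome 19 held 109 of the 268 genes (40.7%). Of these, 63 (57.8%) were lower at 24 h and 9 (8.26%) higher, against 71 (44.7%) and 29 (18.2%) of the 159 elsewhere. Within KRAB genes the share lower was alike on and off this chromosome, at 63.5% of 85 and 63.8% of 58. Without the KRAB pattern it was 37.5% of 24 on chromosome 19 and 33.7% of 101 elsewhere.

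Along chromosome 19 the ZNF genes were divided into blocks wherever neighbours started more than 1 Mb apart. The last block, near the end of the long arm (chr19:55476617-58302791), held 35 genes from ZNF628 to ZNF8. In it 26 genes were lower at 24 h with a median of -0.48 and 0 were higher, by edgeR at an adjusted or an unadjusted p under 0.05 and by DESeq2, while at 12 h 3 were higher and 3 lower with a median of 0.02. ZNF551, ZNF549, ZNF416, ZNF256, ZNF544, ZNF134, ZNF417 and ZNF776, all past 2-fold, lie here, and so does ZNF274, which brings SETDB1 to the ends of ZNF genes and fell by 0.52 at 24 h (SE 0.09, adjusted p = 1.11e-05). ZNF274 was at 28.96 and 24.9 CPM with anti-M8nAb against 38.5 and 38.6 CPM with IgG. The block before it (chr19:51571283-53580269, 21 genes from ZNF175 to ZNF331) had 12 lower and 3 higher, and ZNF331 was among those higher. The fall was not confined to the end of the arm. The 8 genes from ZNF576 to ZNF180 (chr19:43596392-44500524) had 6 lower and 1 higher at 24 h, with a median of -0.70.

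Toward the centromere, 14 genes from ZNF101 to ZNF43 (chr19:19668796-21852125) had 7 lower and 1 higher at 24 h, and 5 higher at 12 h. The 4 genes of the block from ZNF730 to ZNF254 (chr19:23075210-24129968) were lower in 1 and higher in 1 at 24 h, and higher in 3 at 12 h, with a median of 0.57 at 12 h and 0.21 at 24 h.

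Promoter sequence from RefSeq (GRCh38.p14, 250 bases before to 50 after the start) was matched to 232 of the 268 genes by symbol. It was searched on both strands for 8 motifs that were chosen with the results known. The letters of an ETS site, CCGGAAGT, were in 20.3% of the ZNF promoters, against 7.74% of 12878 promoters of genes tested and 4.44% of all 27305 promoters. They were in 32 of 116 promoters of genes lower at 24 h (27.6%) and in 15 of 116 of the others (12.9%), and in 20.6% of those with and 19.8% of those without a KRAB pattern. SP1 letters, GGGGCGGGG, were as frequent in ZNF promoters (26.3%) as in genes tested (26.5%). Letters of the CRE, TGACGTCA, were in 4.74% of ZNF promoters and 3.11% of genes tested, and those of AP-1, TGANTCA, in 6.90% and 4.68%. Of the longer motifs, searched as their consensus, that of ZNF143 was in 2.16% and 0.481%, NRF1 in 1.72% and 2.11%, YY1 in 1.29% and 1.77%, and the palindromic BANP element in 0.862% and 0.823%. None of these strings is contained in another, though matches may share bases. ETS was not the only motif that differed by the 24 h call. CRE letters were in 2 of 116 promoters of genes lower at 24 h (1.72%) and in 9 of 116 of the others (7.76%). For AP-1 these were 10 (8.62%) and 6 (5.17%), and for SP1 28 (24.1%) and 33 (28.4%). The differences between these sets of promoters were not tested.

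The promoters of the 4 genes whose fingers are shown above are given 5′ to 3′ on the strand of the gene, so that the place of the ETS letters can be read. Capitals mark the ETS letters, here on the opposite strand, which the windows of ZNF551 and ZNF134 hold close to the start and those of ZNF281 and ZNF529 do not.
ZNF551: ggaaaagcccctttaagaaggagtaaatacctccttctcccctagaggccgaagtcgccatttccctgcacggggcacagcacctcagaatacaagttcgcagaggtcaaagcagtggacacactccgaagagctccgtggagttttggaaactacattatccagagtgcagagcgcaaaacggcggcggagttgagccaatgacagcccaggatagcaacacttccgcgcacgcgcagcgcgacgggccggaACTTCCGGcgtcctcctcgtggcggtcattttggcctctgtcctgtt
ZNF134: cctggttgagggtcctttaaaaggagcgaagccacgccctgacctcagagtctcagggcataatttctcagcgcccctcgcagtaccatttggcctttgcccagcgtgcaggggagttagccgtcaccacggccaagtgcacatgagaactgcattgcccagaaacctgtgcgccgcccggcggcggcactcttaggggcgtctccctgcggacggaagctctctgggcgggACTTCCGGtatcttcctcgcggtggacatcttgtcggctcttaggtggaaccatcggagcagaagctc
ZNF281: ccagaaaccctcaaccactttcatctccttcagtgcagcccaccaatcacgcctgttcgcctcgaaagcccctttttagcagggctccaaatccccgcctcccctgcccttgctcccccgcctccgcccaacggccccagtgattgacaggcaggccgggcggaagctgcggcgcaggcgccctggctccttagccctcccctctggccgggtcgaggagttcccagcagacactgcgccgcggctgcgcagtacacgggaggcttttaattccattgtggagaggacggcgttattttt
ZNF529: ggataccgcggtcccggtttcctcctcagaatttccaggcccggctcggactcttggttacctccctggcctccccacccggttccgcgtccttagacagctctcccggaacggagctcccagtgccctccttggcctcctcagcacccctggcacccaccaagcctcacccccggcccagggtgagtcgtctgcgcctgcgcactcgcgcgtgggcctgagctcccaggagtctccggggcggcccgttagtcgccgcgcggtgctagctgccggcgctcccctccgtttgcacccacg
The windows are chr19:57681727-57682026 for ZNF551, chr19:57613992-57614291 for ZNF134, chr1:200409987-200410286 on the minus strand for ZNF281 and chr19:36605208-36605507 on the minus strand for ZNF529. Their GC contents are 57.0%, 61.0%, 63.3% and 70.0% in that order, against a median of 62.7% in ZNF promoters and 65.0% in genes tested. A match of letters is a description and no measurement of binding.

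Related genes were set beside the ZNF genes in the same fit. Of the 209 ZNF genes under the count threshold, 157 were tested, and 75 of these (47.8%) were lower and 11 (7.01%) higher at 24 h. In other families with zinc fingers, 8 of 17 ZSCAN genes, 5 of 7 ZKSCAN genes, 16 of 35 ZBTB genes and 6 of 17 ZFP genes were lower at 24 h, while 1, 0, 8 and 2 of them were higher. At 12 h, 4 ZSCAN, 1 ZKSCAN, 12 ZBTB and 2 ZFP genes were higher, and in that order 3, 1, 7 and 1 were lower. Of the 157 ZNF genes under the threshold, 15 were higher and 12 lower at 12 h, with a median of -0.004. Among all genes tested, 21.3% were lower and 21.2% higher at 24 h, and 16.4% were lower and 15.8% higher at 12 h. All 7 ZKSCAN genes had a negative log2 fold change at 24 h. Differences between families were not tested.

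Of 20 genes of the KRAB corepressor machinery, 24 h brought 10 calls lower and 3 higher, where 27.0% and 27.7% of genes with a mean raw count of at least 200 were called so. At 12 h there were 6 and 5, not far from the 21.5% and 20.8% of such genes. The list's median log2 fold changes were -0.19 at 24 h and -0.09 at 12 h. ZNF274, which is also in the ZNF set, is on this list and was among those lower at 24 h. TRIM28 itself rose at both times. It was at 1542 and 1501 CPM with anti-M8nAb against 1138 and 1282 CPM with IgG at 24 h (0.33, SE 0.05, adjusted p = 7.1e-08), and its log2 fold change at 12 h was 0.16 (SE 0.05, adjusted p = 0.00634). SETDB1 passed the test at neither time, with 49.4 and 49.6 CPM with anti-M8nAb against 45.6 and 47.4 CPM with IgG at 24 h and log2 fold changes of 0.16 at 12 h and 0.09 at 24 h.

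**Figure D5:**
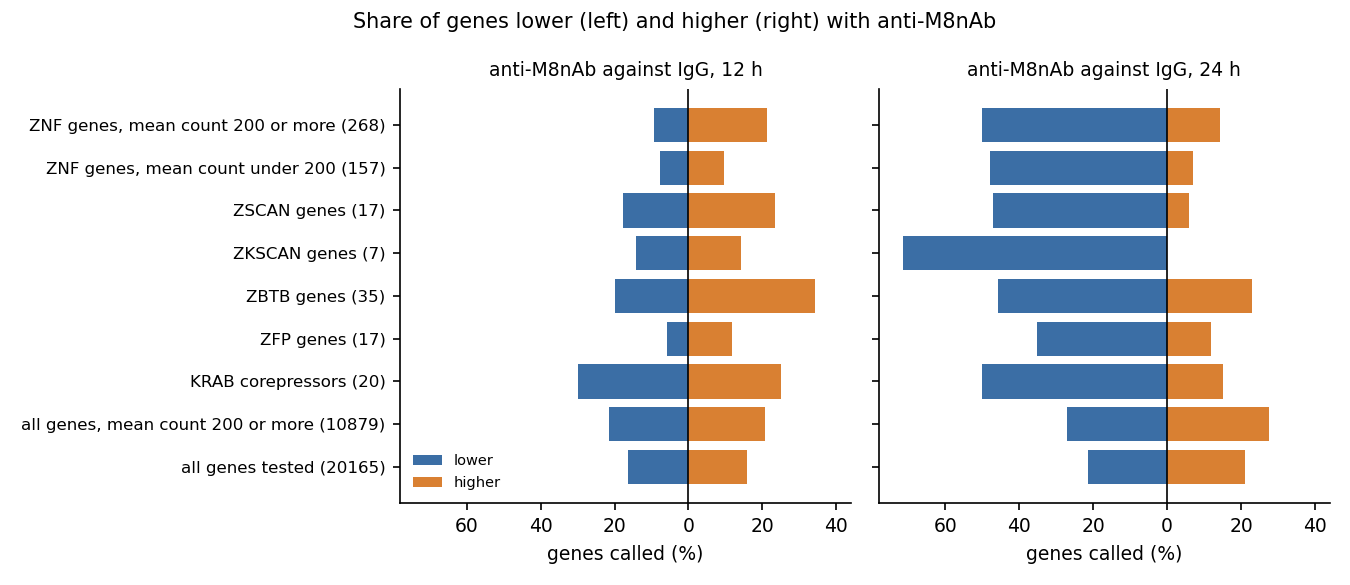
Share of genes in percent (x axis) called lower (bars to the left) and higher (bars to the right) with anti-M8nAb at 12 h and at 24 h, for the ZNF genes, other zinc finger families, the KRAB corepressors and all genes tested, with the number of genes tested in brackets. For ZNF genes with a mean count of 200 or more the bars reach 50% lower and 14.2% higher at 24 h, and for all genes tested 21.3% and 21.2%.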

How the data were processed

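RNA of BG01 cells was sequenced by the authors in 8 libraries. Per their methods, reads were trimmed with Trimmomatic, aligned to GRCh38.p14 with STAR in 2 passes, cleared of duplicates with Picard and assigned by HTSeq to Ensembl genes. FastQC 0.11.9 and GATK are also in the submitters' notes. The authors deposited raw counts per gene and, separately, FPKM made with RNAnorm. Each table has 4 further columns that were not used. Lines with a blank gene name, 1005 in number and 53.3 to 54.1% of all counts in a library, were left out.

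Counts were filtered by edgeR's rule on low counts within groups, scaled by TMM and modelled by group (4 means) in edgeR 4.0.16 under R 4.3.3. Contrasts of anti-M8nAb against IgG at each time, of the difference between times and of IgG at 24 h against 12 h took the two-sided quasi-likelihood F test, adjusted by Benjamini-Hochberg over 20165 genes, and a gene was called at an adjusted p under 0.05. The fit was also run on simulated counts with the same spread for every gene and few changed genes. Those settings differ from these data, so that run cannot vouch for the calls here. The methods do not say whether reads of both strands are in the counts, and this was not tested. Overlap with other genes of GENCODE v44 on either strand is therefore given for named genes where it is 10% or more of the exon sequence. The same holds for 50-base words shared with other transcripts. A KRAB pattern was called where at least 10 of 17 positions of the A box matched, in proteins translated from GENCODE coding sequences, which stood in for RefSeq proteins.

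The ZNF genes, the role lists, the motifs and the rule for named genes were chosen with earlier results of these data known. The rule takes, at each time, up to 7 called genes in each direction with the smallest p, 4 in each direction for the difference, the 5 of highest mean FPKM, the 2 nearest the threshold on either side, all called genes past 2-fold, and up to 4 called genes of each role list. A few others, such as ZNF143, ZNF274 and the 9 genes that turned direction, were named after their values were seen. Alternatives were DESeq2 1.42.0, its size factors, each time alone, other filters, protein-coding genes alone, limma 3.58.1 on log2(FPKM + 1) and log2(FPKM + 0.1) with a minimum mean FPKM of 0.5, a replicate block, a GC offset, other count thresholds, a 2-fold threshold and each library left out. Leaving out genes with overlap or shared words of 10% or more was added after seeing the data.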

Additional observations from a re-analysis of the deposited data

Results flagged for a closer look

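The response to anti-M8nAb differed between the 2 times, by the test of the difference itself (edgeR's quasi-likelihood F test with Benjamini-Hochberg adjustment), in 112 ZNF genes whose response was more negative at 24 h than at 12 h and in 8 whose response was more positive, where 6.54% and 5.79% of all genes tested were called so. Among the genes named, the change was -1.99 on the log2 scale for ZNF549, -1.50 for ZNF551, -1.11 for ZNF134 and -1.06 for ZNF398. It was 1.01 for ZNF516, 0.86 for ZNF165, 0.61 for ZNF326 and 0.40 for ZNF609. With 2 libraries in each group, single libraries could not be examined as outliers within their groups.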

How the results depend on the processing

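None of the results turned direction under any alternative, and of 2277 values for 58 named genes 2143 kept their call and 134 lost it. With limma on log2(FPKM + 1), 33 ZNF genes were higher at 12 h, 20 higher at 24 h, 10 higher at both times, 61 more negative and 2 more positive at 24 h, and the median at 12 h was 0.01593. With log2(FPKM + 0.1) these were 32, 19, 9, 59 and 2, with medians of 0.02119 at 12 h and -0.3266 at 24 h. The medians of all genes in that fit were also below 0, at -0.0539 at 12 h and -0.0835 at 24 h. With no filter on low counts 4 genes were more positive and 75 more negative. The median at 12 h was 0.1004 and at 24 h -0.2352 with protein-coding genes alone, 0.07249 with a GC offset and 0.07097 with that and a replicate block. A count threshold of 100 (339 genes) gave medians of 0.06851 and -0.3342, 176 lower at 24 h and 31 lower at 12 h. A threshold of 500 (136 genes) gave 35 higher and 9 lower at 12 h, 58 lower at 24 h, 26 higher at 24 h, 52 more negative, 5 more positive, 6 lower and 17 higher at both times and a median of -0.1386 at 24 h. Among 195 genes with little overlap and few shared words, 99 were lower and 29 higher at 24 h, 43 higher and 19 lower at 12 h, 85 more negative, 17 higher and 12 lower at both times. At 2-fold, 2 were higher and 1 lower at 12 h, 0 higher and 25 lower at 24 h, 21 more negative and 1 more positive, and 0 were called at both times in either direction.

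With each library left out in turn, 40 to 66 genes were higher and 13 to 26 lower at 12 h. At 24 h there were 27 to 40 higher and 114 to 134 lower, 86 to 105 more negative, 4 to 7 more positive, 16 to 24 higher and 9 to 20 lower at both times, with medians of 0.05784 to 0.1038 at 12 h and -0.2749 to -0.2467 at 24 h. An arm with 1 library was then assumed to vary like the other groups. The replicate numbers were not taken to pair the libraries. Deviations of libraries with the same number correlated at -0.0517 to 0.039 over all genes and at -0.136 to 0.0835 over the ZNF genes. Such correlations cannot show how cultures were paired. The replicate block gave 57 higher and 25 lower at 12 h, against 38 and 135 at 24 h. With 2 libraries per group and 1 cell line, small changes of genes near 200 counts were not detectable at this depth.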

Other observations

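Away from chromosome 19, the 8 ZNF genes on chromosome 6 leaned the other way, a pattern picked out after the values were seen and not tested. At 24 h 5 were higher and 2 lower, with a median log2 fold change of 0.42, and at 12 h 5 were higher, with a median of 0.35. For genes with a mean raw count of at least 200, the shares called so at 24 h were 27.7% and 27.0%. The upward share at 12 h was 20.8%. Chromosome 6 was not alone in this. The 24 h median was also positive on X (0.23, 4 genes), 22 (0.25, 1 gene), 5 (0.19, 5 genes) and 14 (0.14, 2 genes). It was negative on every other chromosome that held ZNF genes of the set. On chromosome 6, ZNF318, ZNF322, ZNF391 and ZNF76 were higher at both times. ZNF391, for example, was at 24.2 and 21.6 CPM with anti-M8nAb against 17.5 and 13.8 CPM with IgG at 24 h (0.55, adjusted p = 0.000185), with 10.9% of its exon sequence under a gene on the other strand. ZNF322, 28.1% of whose 50-base words recur in other transcripts, was at 22.9 and 22.7 CPM with anti-M8nAb against 17.9 and 16.9 CPM with IgG. ZNF292, a gene mutated in neurodevelopmental disorders, was higher at 12 h, at 75.7 and 77.8 CPM with anti-M8nAb against 55.2 and 57.9 CPM with IgG, and lower at 24 h, at 50.3 and 45.6 CPM with anti-M8nAb against 68.7 and 66.2 CPM with IgG.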
